A study of Mus musculus with 24 samples.

Results

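The 150 probes described here are those counted most strongly in CD31+ regions of the mouse kidney relative to 3 other kinds of region. They were selected on measured values. For each of 20186 probes the counts of a region were scaled to a total of 1000000 (CPM), the median over the 6 regions of a cell type was calculated, and 1 CPM was added. A probe had to reach 10 or more counts in all 6 kidney regions, which 3590 probes did. It also had to be at least 3 times as high in kidney as in the highest of the other 3 cell types, which 198 probes were. The 150 with the highest ratio were kept and ranked by it, with rank 1 the highest. The 24 regions came from male C57BL/6J mice. The cell types were microvascular endothelial cells (MECs) of the kidney (renMECs), heart (carMECs) and retina (retMECs), outlined by CD31, and retinal neuronal cells, outlined by NeuN. Each cell type had 3 non-diabetic and 3 diabetic regions. Diabetic mice received streptozotocin at 8 weeks of age, 50 mg/kg in citrate buffer given intraperitoneally on 5 days, and non-diabetic mice received citrate buffer alone. Tissue was fixed in formalin, embedded in paraffin and taken 2 months later. The design names 3 mice per condition, and the labels do not say which region came from which mouse, so p-values measure the spread between these regions.

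Streptozotocin kills pancreatic beta cells, which make insulin, and the mice become hyperglycemic. Capillaries of the kidney include the fenestrated loops of the glomerulus, where blood is filtered next to podocytes and mesangial cells, and peritubular capillaries that run between tubules and take up what the tubules reabsorb. Diabetic kidney disease is known for damage to the glomerular filter and for a loss of capillaries. A region in this assay is an area of a section lit by ultraviolet light, which frees the probe barcodes within it, so a CD31+ region can also hold barcodes from cells that touch the vessel. The probe IDs are not paired with gene symbols in the files or in the reference tables used here, where 0 of the 20186 IDs matched, so the roles of the members, cell type markers and probe sequences were not analysed here. The endothelial identity of the regions was therefore not checked against defining genes. Fewer cells of a type and less RNA per cell cannot be told apart in such regions.

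Total counts ranged from 28722 to 1451915 per region. The non-diabetic renMEC regions held 568886, 263315 and 1451915 counts and the diabetic ones 356967, 217736 and 333862, so all 3 diabetic totals lay within the non-diabetic range or below it. The 6 retMEC regions were on a first plate, where 39.9% to 61.0% of reads aligned, and the other 18 on a second plate, where 79.4% to 96.7% did. A low level in retMECs and the plate cannot be told apart. The titles of 2 diabetic heart regions name the heart and no cell type, and they were placed with carMECs because the design lists no other heart cells.

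The ratio of kidney to the highest other cell type is the value that chose the members, and it is given as a description. It ran from 3.66 to 312, with a median of 5.77 and an interquartile range of 4.51 to 8.46. The ratio was over 20 for 10 members and over 10 for 31, while 53 members had a ratio of at most 5. The probe at rank 1 stood far from the rest, since rank 2 had a ratio of 62.7. The last member had 129 CPM in renMECs against 34.6 CPM in carMECs, and the first probe left out had 137 CPM against 36.9 CPM in neuronal cells, a ratio of 3.64. The last of the 198 probes to pass had a ratio of 3.02. The first to miss the threshold had a ratio of 2.99 at 3377 CPM.

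For 122 of 150 the lowest renMEC region lay above the highest of the other 18 regions, and for 28 the ranges met. The rule used the same values and favours such separation, so this is a description. The share over all probes was not counted. The highest other cell type was carMECs for 87 members, retMECs for 52 and neuronal cells for 11. Members reached from the most abundant probes of the kidney to moderate ones, with 3 among the 10 highest renMEC probes, 35 among the highest 100 and 111 among the highest 500. The lowest member was the probe ranked 1612 by renMEC level.

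Outside the kidney the median member was near the median of all probes, at low counts. These levels entered the ratio that chose the members, so they are a description. The 75th percentile over all probes was 6 to 23 counts a region in carMECs, 2 to 20 in retMECs and 4 to 35 in neuronal cells. No background level was subtracted. The median over members of the median CPM was 248 in renMECs, where the median over all probes was 24.4 CPM. It was 34.5 CPM in carMECs beside 34.1 CPM for all probes, 31.5 CPM in retMECs beside 34.9 CPM, and 24.8 CPM in neuronal cells beside 26.2 CPM. Every member exceeded the all-probe median in renMECs, which the rule favoured, and 77, 64 and 63 of 150 did so in carMECs, retMECs and neuronal cells. Counts there were small. Only 13 members had 10 or more counts in all 6 carMEC regions, 3 did in all 6 neuronal regions and 0 did in all 6 retMEC regions. At least 1 region without a count was found for 11 members in carMECs, 35 in neuronal cells and 102 in retMECs. In renMECs the rule allowed 0 such members. The shares of all probes with 10 or more counts, or without a count, were not counted in these cell types. The heat map of all members shows this drop at the edge of the kidney block.

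**Figure D1:**
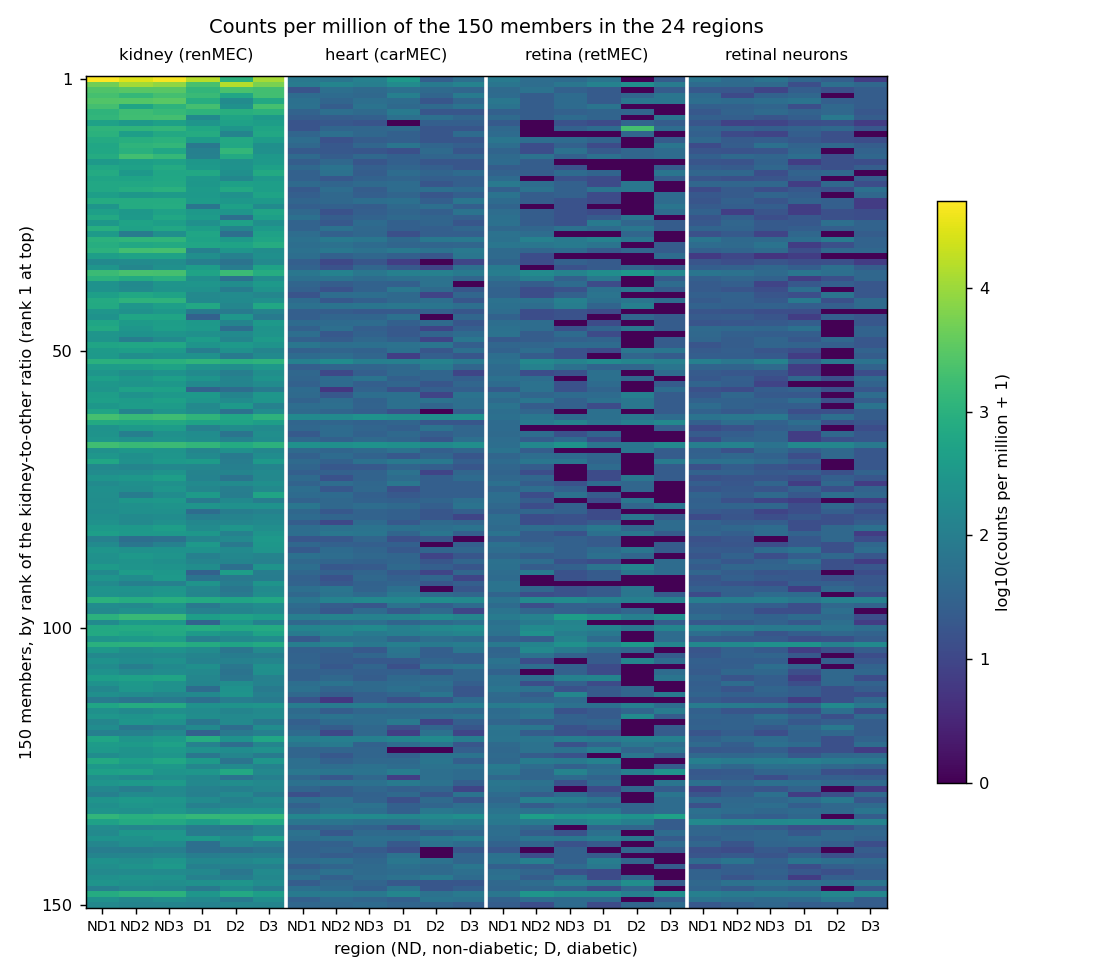
Level of each of the 150 members (rows, by rank of the kidney-to-other ratio) in each of the 24 regions (columns), as log10(CPM + 1). Darkest cells hold no count. For 122 of 150 rows all 6 kidney columns are brighter than the other 18, which the choice of the rows favours. The first row reaches 50056 CPM. Empty cells are most frequent in the shallow retMEC regions, where 102 members lack a count in at least 1 region.

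Single high values outside the kidney were few. The member at rank 10 had 60 counts, or 2089 CPM, in diabetic retMEC region 2, the region with the lowest total, where the other 5 retMEC regions ran from 0 to 44.5 CPM. The member at rank 134 had 87.6 to 489 CPM across the 6 retMEC regions. The member at rank 1 had 326 CPM in diabetic carMEC region 1 and 25.1 to 109 CPM in the other 5 heart regions.

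The members together took a large share of what was counted in the kidney. They held 12.7%, 11.1% and 13.1% of all counts in the 3 non-diabetic renMEC regions, a mean of 12.3% ± 1.03 (SD, n = 3). In the diabetic renMEC regions they held 6.24%, 5.53% and 6.63%, a mean of 6.13% ± 0.555 (SD, n = 3). The highest diabetic region lay below the lowest non-diabetic one, and the mean share in diabetes was 0.498 of that without. In the other 18 regions the members held between 0.418% and 0.808%, so the lowest kidney region was 6.85 times the highest other region. Wilson 95% intervals of these shares, which cover counting error only, reached at most 0.120 percentage points to either side in kidney and 0.104 elsewhere.

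**Figure D2:**
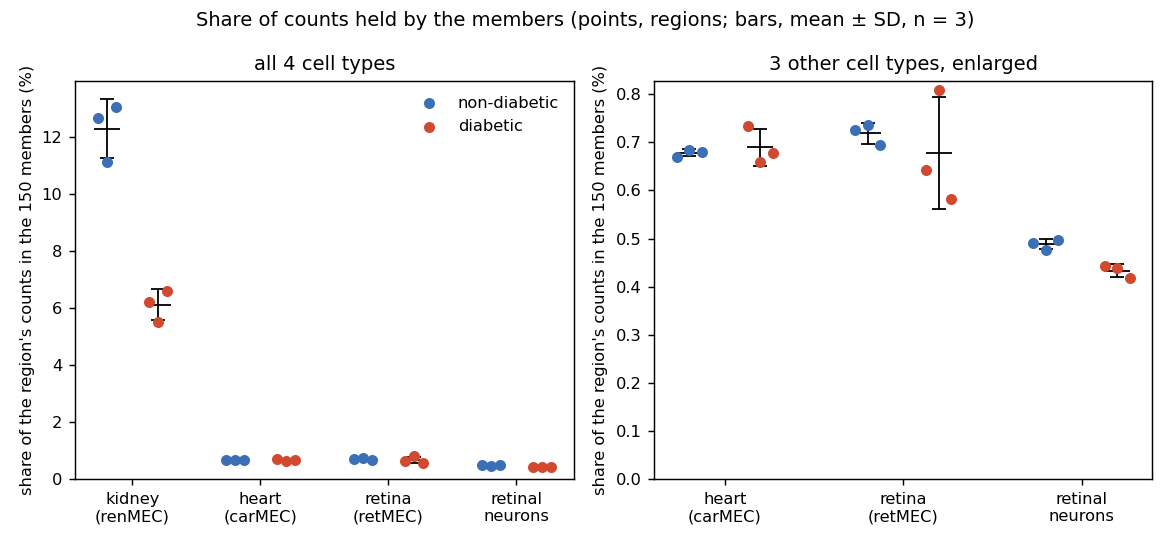
Share of each region's counts held by the 150 members (y axis, %), by cell type and condition, with all cell types on the left and the 3 other cell types enlarged on the right. Points are regions and bars are the mean ± SD of 3 regions. The non-diabetic kidney regions sit between 11.1% and 13.1%, the diabetic kidney regions between 5.53% and 6.63%, and all other regions below 1%.

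In the other cell types the share moved little in absolute terms. It was 0.670% to 0.685% in non-diabetic and 0.660% to 0.733% in diabetic carMECs, and 0.694% to 0.737% in non-diabetic and 0.583% to 0.808% in diabetic retMECs, so both overlapped. In neuronal cells it was 0.477% to 0.497% without and 0.418% to 0.444% with diabetes, without overlap. The diabetic neuronal regions were shallower, with totals of 78053 to 168298 beside 244551 to 788146. Of the 16 members tested there, 0 were called at an adjusted p under 0.05 by edgeR's quasi-likelihood test. Sums over other sets of probes were not compared. No p is given for the shares of any cell type, since they add up members that were chosen with results known.

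RTS0080792, the member at rank 1, alone supplied 51.5% of the fall in kidney share. It had 50056, 29421 and 44536 CPM in the non-diabetic renMEC regions and 15836, 1024 and 11837 CPM in the diabetic ones. All 3 diabetic values were below all 3 non-diabetic values, and diabetic region 2 was over 10 times lower than the other 2 diabetic regions. With 223 counts in that region and 64663 in non-diabetic region 3, counting error is small beside this spread. In the other cell types it had a median of 71.4 CPM in carMECs, 44.5 CPM in retMECs and 39.9 CPM in neuronal cells. It was not counted in diabetic retMEC region 2, which allows up to 104 CPM at that depth. Its log2 fold change in diabetic over non-diabetic renMECs was -2.33 (SE 1.08), with an adjusted p of 0.41 by edgeR's quasi-likelihood test, so it did not pass. It passed without diabetic region 2, at -1.80 on the log2 scale, in 1 model of all 24 regions and at the thresholds of the methods' t-test, both at -2.33.

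RTS0080791, the member at rank 2, showed no such order. Its renMEC values were 4843, 11332 and 8303 CPM without diabetes and 2135, 15041 and 5700 CPM with diabetes, so the lowest and the highest of the 6 regions were both diabetic. The log2 fold change was -0.31 (SE 0.82, adjusted p 0.90 by edgeR's quasi-likelihood test). Its other levels were a median of 110.6 CPM in carMECs, 79.7 CPM in retMECs and 41.4 CPM in neuronal cells. Diabetic region 2, the lowest of all kidney regions for rank 1, was the highest for rank 2. The remaining 148 members held 7.20%, 7.05% and 7.79% of counts in non-diabetic and 4.44%, 3.92% and 4.87% in diabetic renMECs, again without overlap, and their mean share in diabetes was 0.600 of that without.

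Whether diabetes changed the members within the kidney was asked with counts scaled to the 75th percentile of each region, fitted over all 9486 probes that passed the filter on low counts. The rule had used medians over both conditions and not their difference. All 150 members passed the filter, as their choice required. In diabetic renMECs 68 members fell and 0 rose at an adjusted p under 0.05 by edgeR's quasi-likelihood test. Of all 9486 probes tested, 3.25% fell and 0.464% rose, so the members made up 22.1% of the 308 probes that fell. At an unadjusted p under 0.05 the numbers were 94 lower and 1 higher, beside 12.3% and 3.91% of all probes. DESeq2 called 47 members lower and 1 higher, beside 1.39% and 0.179% of all probes. The log2 fold change was below 0 for 138 members and above 0 for 12, with a median of -0.95 over members beside -0.09 over all probes. Scaling by total counts instead moved the median of all probes to 0.14 and that of the members to -0.73. Members lower numbered 41 on that scale, where 1.62% of all probes were lower. The median of the members lay 0.86 below that of all probes in the main fit. It lay 0.87 below by total counts and 0.89 below with trimmed mean of M-values factors. These shares and gaps set the members beside many probes with fewer counts, in which a fall is harder to call. Refitted over only the 3590 probes with 10 or more counts in every renMEC region, 370 fell and 28 rose. Members were 77 and 0 of these. The median was -0.24 over those 3590 probes and -0.96 over the members, a smaller gap.

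**Figure D3:**
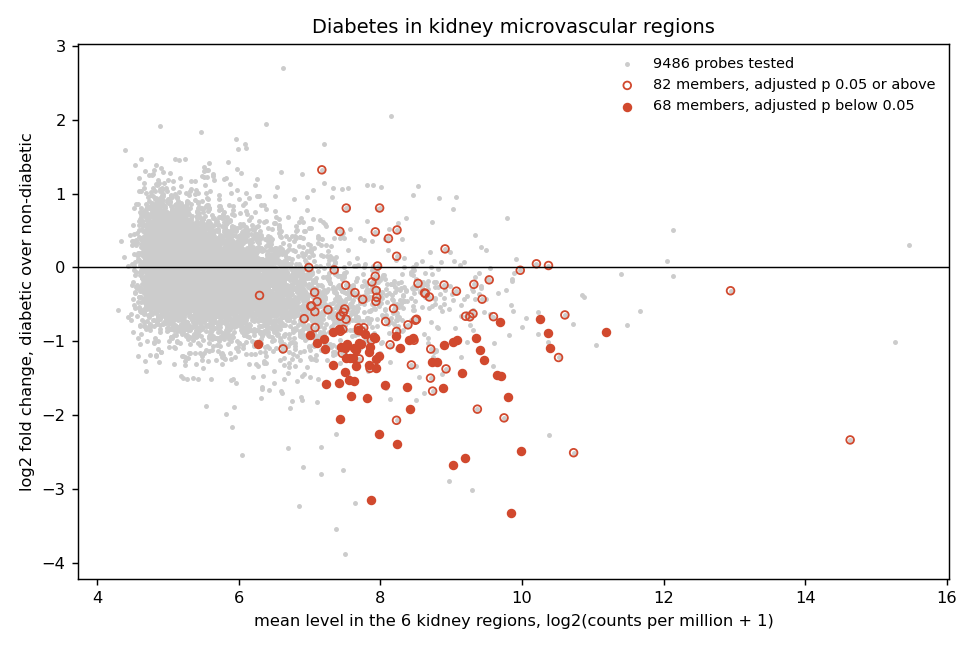
Log2 fold change in diabetic over non-diabetic renMECs (y axis) against mean level in the 6 renMEC regions, log2(CPM + 1) (x axis), for the 9486 probes tested (grey) and the 150 members (red). Filled circles are the 68 members with an adjusted p under 0.05, all below 0, and open circles are the other 82, of which 70 are below 0 and 12 above.

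The same regions were also compared by overlap, which restates the values of the fit and is not separate support. After the same scaling every diabetic renMEC region was below every non-diabetic one for 94 members and above for 1, beside 15.1% and 6.39% of all probes tested. All 68 members that fell were among the 94.

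The count of falling members rested in part on single regions. Without non-diabetic region 3, the deepest, 28 members fell, beside 0.677% of all probes. Without diabetic region 1, 45 members fell, beside 1.5% of all probes, and without diabetic region 2, 71 fell and 2 rose, beside 2.88% lower among all probes. With the replicate number as a block 99 members fell and 2 rose, and 5.25% of all probes fell. The median log2 fold change of the members stayed between -1.02 and -0.83 over all 6 omissions of 1 region. The methods' t-test at their thresholds called 83 members lower and 0 higher, beside 3.83% and 3% of 20185 probes. After the Benjamini-Hochberg adjustment it called 0 members and 0 probes in all.

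Members that fell were found at all ranks. Of ranks 1 to 50, 20 fell, with a median log2 fold change of -1.02 over all 50. Of ranks 51 to 100, 23 fell (median -0.89), and of ranks 101 to 150, 25 fell (median -0.94). Across the 150 members Spearman's rho between the ratio and the log2 fold change was -0.11, and between the kidney level and the log2 fold change -0.10. These are descriptions across probes that share the same 6 regions, and the ratio itself includes the diabetic kidney regions. Among the 68 that fell the change ran from -0.70 to -3.31 on the log2 scale with a median of -1.21, and 52 were more than 2-fold and 8 more than 4-fold lower. The 82 others had a median of -0.58. The largest rise was at rank 84, at 1.32 on the log2 scale (SE 0.44), with an adjusted p of 0.16 by edgeR's quasi-likelihood test.

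The 68 that fell held 3.45%, 3.83% and 4.12% of counts in non-diabetic and 1.70%, 1.73% and 1.91% in diabetic renMECs. These sums describe members chosen for their difference between the same regions. Without rank 1, the 81 members that did not pass held 4.24% to 4.50% without and 2.95% to 3.70% with diabetes, so their sum also lay lower in every diabetic region.

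The smallest p among the members that fell belonged to RTS0064336, at rank 41. It had 754, 1105 and 1092 CPM in the non-diabetic and 171, 175 and 228 CPM in the diabetic renMEC regions. The diabetic regions lay close together and well below the others. The log2 fold change was -2.58 (SE 0.22), 5.97-fold lower, with an adjusted p of 5.1e-08 by edgeR's quasi-likelihood test. It had a mean of 29.7 CPM ± 12.5 in non-diabetic and 35.5 CPM ± 16.7 in diabetic carMECs (SD, n = 3 each). In retMECs, its highest other cell type, the means were 76.5 CPM ± 31.3 and 55.9 CPM ± 12.7 (SD, n = 3 each). Its kidney-to-other ratio was 18.4 in non-diabetic and 3.21 in diabetic regions.

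RTS0061671, at rank 109, came next. It had 436, 494 and 551 CPM without and 140, 68.9 and 114 CPM with diabetes in renMECs, again with a wide gap between the conditions. The log2 fold change was -2.39 (SE 0.25), 5.24-fold lower, with an adjusted p of 1.0e-06 by edgeR's quasi-likelihood test. In diabetes its kidney level was near that of retMECs, where it ran from 0 to 129 CPM. Both probes passed under every alternative by edgeR or DESeq2 tried in renMECs and at the thresholds of the methods' t-test, and neither passed the methods' t-test after the Benjamini-Hochberg adjustment.

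**Figure D4:**
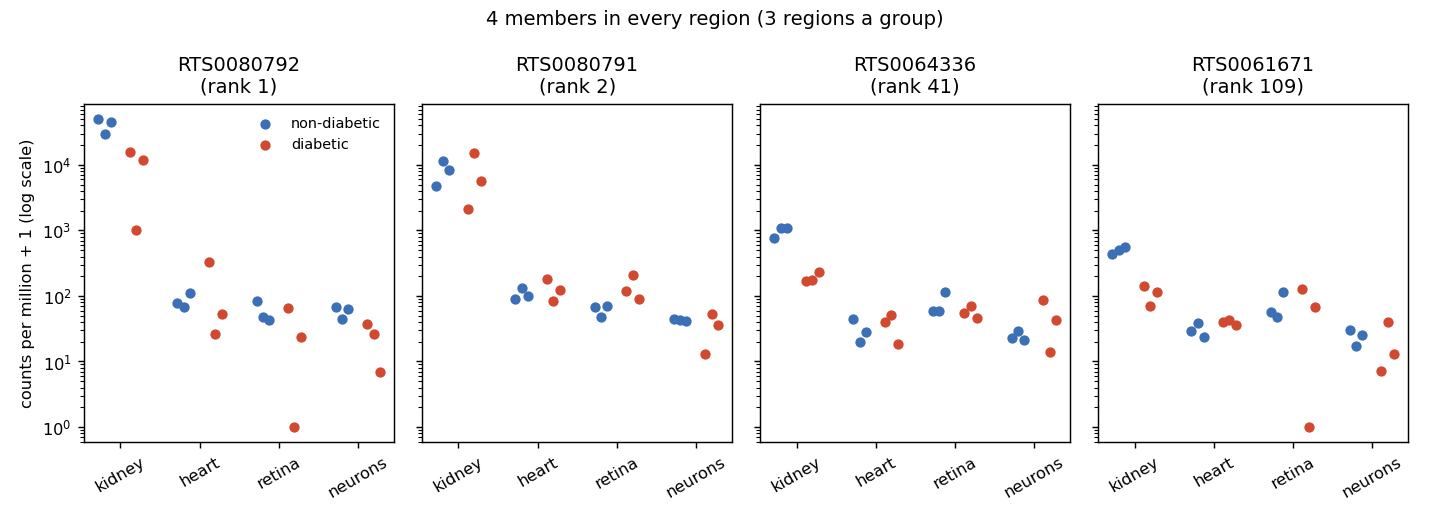
Level of 4 members in each region as CPM + 1 (log scale), by cell type and condition, with 3 regions a group. For RTS0080792 diabetic kidney region 2 lies at 1024 CPM, far below the other kidney regions, RTS0080791 overlaps between conditions, and RTS0064336 and RTS0061671 are lower in all 3 diabetic kidney regions than in any non-diabetic one.

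The members varied more between diabetic than between non-diabetic kidney regions. The median coefficient of variation of CPM over 3 regions was 17.1% without diabetes and 35.2% with diabetes for the members, beside 15.9% and 20.9% for the 3590 probes with 10 or more counts in every kidney region. The highest diabetic region was more than 3 times the lowest for 36 members, and for 19 it was more than 5 times. In non-diabetic regions this held for 3 and 0. This range was taken for the members only, without a share over other probes. Region 2 was the usual low one. The CPM was lowest in region 2 for 79 members without and 84 with diabetes, 52.7% and 56.0%, whereas 30.8% and 26.5% of the 3590 probes were lowest there. In both conditions at once 65 members were lowest in region 2, 43.3%, beside 11.4% of the 3590 probes. Another 22 members, 14.7%, were highest there in both, beside 20.9%. Region 2 of each condition was also the kidney region with the smallest total, and whether depth plays a part was not tested. After all 6 regions were thinned to the lowest total, 57 members fell and 0 rose, beside 4.23% and 0.282% of all probes.

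**Figure D5:**
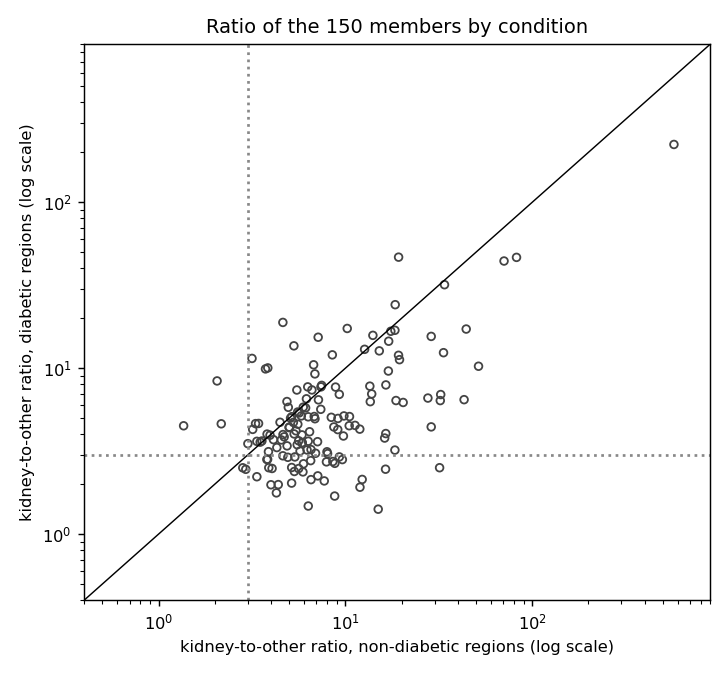
Ratio of renMECs to the highest other cell type for each of the 150 members, from diabetic regions (y axis) against non-diabetic regions (x axis), both on log scales, with the line of equality and dotted lines at 3. Of the members, 116 lie below the line, the medians are 6.55 without and 4.46 with diabetes, and 35 fall under 3 in diabetes.

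The rule's ratio was also taken within each condition, as a description, since the same regions chose the members. The median ratio was 6.55 in non-diabetic and 4.46 in diabetic regions. It was lower in diabetes for 116 members and higher for 34, and the share over other probes was not counted. The ratio was 3 or more for 145 members without and 115 with diabetes, and 0 members fell under 1 in either, with the lowest at 1.36 and 1.41. When the whole rule was run on the regions of 1 condition, 123 of the 150 were chosen again from non-diabetic and 115 from diabetic regions. In an alternative added after seeing the data, a list chosen on the 3 diabetic kidney regions and all regions of the other cell types held 49 probes that fell and 2 that rose, of 150, with a median of -0.71. A list chosen with the 3 non-diabetic kidney regions instead held 75 that fell and 0 that rose. Of all probes tested in the main fit 3.25% fell and 0.464% rose. Each list was chosen on 1 side of the comparison in which it was then counted. Choice on diabetic regions favours fewer falls and choice on non-diabetic regions favours more, so neither number is support for a fall.

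Outside the kidney few members had enough counts to be tested for diabetes. In carMECs 32 members passed the filter and 0 were called in either direction by edgeR's quasi-likelihood test, where 0.924% of 3247 probes were called. In neuronal cells 16 passed and 0 were called, where 1.23% of 4135 probes were. In retMECs 7 passed and 0 were called, where 0% of 699 probes were. At an unadjusted p under 0.05 there were 0 in carMECs, 2 lower in neuronal cells, where 5.76% of all probes were lower, and 0 in retMECs. DESeq2 called 0 members in each. At this depth a change of these members outside the kidney was not detectable for most of the list, and the numbers do not show that the members were unchanged there.

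The difference of the diabetes effect between cell types was tested directly in 1 model of all 24 regions with 11299 probes. It passed for 2 members against carMECs, 3 against neuronal cells and 1 against retMECs, all lower in renMECs, 5 members in all. Of all probes 0.0531%, 0.0708% and 0.204% passed in either direction. Of these 6 differences, 5 concern a member that had too few counts in the other cell type to pass the filter there, with 0 to 22 counts a region and a median of 6, so it entered the model through its kidney counts and a fall in the other cell type could hardly have been seen. The difference at rank 32 against carMECs is the 1 for which the member passed the filter in both. At an unadjusted p under 0.05, 43 members were lower and 3 higher against carMECs, beside 2.41% and 4.13% of all probes. Against neuronal cells 34 were lower and 0 higher, beside 2.89% and 4.07%, and against retMECs 18 were lower and 8 higher, beside 5.4% and 5.67%. Only 32, 16 and 7 members passed the filter in carMECs, neuronal cells and retMECs, so most entered these comparisons through their kidney counts. There the unadjusted numbers cannot separate a fall limited to the kidney from one also present in the other cell type but not detectable. For most members a fall particular to the kidney was thus not shown. The 3 comparisons share the renMEC regions. The member at rank 32 passed against carMECs. It had 1039, 1868 and 2047 CPM without and 112, 280 and 198 CPM with diabetes in renMECs, beside 56.2 to 75.7 CPM and 58.5 to 78.3 CPM in carMECs. Its kidney fall was the largest of the list, at -3.31 on the log2 scale (SE 0.38), with an adjusted p of 0.0021 by edgeR's quasi-likelihood test. The member at rank 8 passed against both carMECs and neuronal cells. It had 1241, 1808 and 1955 CPM without and 168, 560 and 329 CPM with diabetes in renMECs. In carMECs it had a mean of 24.5 CPM ± 2.07 without and 45.7 CPM ± 9.56 with diabetes (SD, n = 3 each), on 4 to 14 counts a region.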

How the data were processed

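Probe barcodes of 24 regions were sequenced after GeoMx Digital Spatial Profiling of mouse sections. The deposited lists hold counts, which the authors made from the reads with GeoMx NGS Pipeline 2.3.4, as the file headers name it, with 1 count per unique molecular identifier. These counts were not scaled, and probes not listed were taken as 0. The quality filter and the 75th percentile scaling of the study were not in them. Groups came from the labels.

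CPM were calculated from the counts. Diabetes was tested with edgeR 4.0.16 in R 4.3.3 (robust quasi-likelihood fit, factors at the 75th percentile, filter at a minimum of 10 counts), over the 6 regions of a cell type, and its difference between cell types over all 24 regions. P-values were adjusted by Benjamini-Hochberg over all probes tested, at 0.05. Standard errors are the absolute log2 fold change over the square root of F. The code was tested on simulated data. Alternatives used DESeq2 1.42.0 or Student's t-test of the methods (fold over 1.5). Others used other scalings and filters, thinned counts, a replicate block and omission of each region. Probes were named as the 2 highest ratios and the 2 members of smallest p that fell (0 rose), others by rank. The members and lists were chosen with earlier results of these data known. Gene and marker lists were drawn up but not tested, since no probe had a symbol.

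Replicate pairs of renMECs differed beyond sampling noise, with chi-square per degree of freedom between 1.51 and 2.20. Same-numbered renMEC regions deviated together over the 3590 probes, with correlations of 0.27, 0.30 and 0.19 of log2(CPM + 1), and less so over the 9486 probes tested after 75th percentile scaling, with 0.18, 0.15 and 0.07. In the other cell types the correlations of log2(CPM + 1) ran from -0.12 to 0.09, and the labels name no pairing.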

Additional observations from a re-analysis of the deposited data

Results flagged for a closer look

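The interaction contrast of edgeR's quasi-likelihood test passed for 5 members, with n = 3 regions a group and p adjusted over 11299 probes. Only the member at rank 32, against carMECs, passed the filter on low counts in both cell types. The other 4, at ranks 8, 41, 57 and 109, did not pass it in the compared cell type, with 0 to 22 counts a region. Those 5 differences rest on the kidney counts, where the rule made the members high. They do not show that the effect differed between cell types. Each value is the log2 fold change in renMECs minus that in the other cell type. Against carMECs it was -3.22 for the member at rank 8 (SE 0.68, adjusted p 0.012) and -3.38 for the member at rank 32 (SE 0.59, adjusted p 0.00091). Against neuronal cells it was -3.05 at rank 8 (SE 0.71, adjusted p 0.049), -3.67 for RTS0064336 at rank 41 (SE 0.62, adjusted p 0.00036) and -3.71 at rank 57 (SE 0.81, adjusted p 0.023). Against retMECs it was -2.72 for RTS0061671 at rank 109 (SE 0.66, adjusted p 0.035). The member at rank 57 had 287, 479 and 474 CPM without and 30.8, 45.9 and 83.9 CPM with diabetes in renMECs, and 11.4 to 30.5 CPM in all 6 neuronal regions, where single values rest on few counts. The plate of retMECs and the cell type cannot be told apart.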

How the results depend on the processing

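Members that fell in diabetic renMECs numbered 68, and 41 by total counts, with the median at -0.73 in place of -0.95 on the log2 scale. Leaving out 1 region gave 28 to 71, and the methods' t-test after adjustment gave 0. TMM gave 76, the 75th percentile without members 71, DESeq2 47, no filter 65, 10 counts in every region 77, thinned counts 57, 1 model of all 24 regions 68 and the replicate block 99. Members that rose numbered 0, but 1 with DESeq2, 1 in 1 model of all 24 regions and 2 with the replicate block, and 0 to 2 when 1 region was left out. The methods' t-test before adjustment called 10 members in carMECs, 7 in neuronal cells and 7 in retMECs, 6.67%, 4.67% and 4.67% beside 6.44%, 6.21% and 6.17% of all probes, where edgeR called 0, and without a filter 1 member was called in retMECs. No other alternative called a member there, the replicate block included. Differences of the effect passed for 5 members (TMM) and 8 (DESeq2) against carMECs, 5 (DESeq2) against neuronal cells and 4 (DESeq2) against retMECs, and for 2, 2 and 1 with the replicate block. The rule chose 115 to 149 of the same members under 6 other settings and 136 to 143 when 1 kidney region was left out. Chosen after seeing the data, leaving out rank 1 moved the diabetic over non-diabetic share from 0.498 to 0.634, and leaving out a region gave 0.476 to 0.523. RTS0080791 turned from -0.31 to 0.13 on the log2 scale without diabetic region 1, and was -1.25 without diabetic region 2, passing in none. The cause of these shifts was not tested. Outside the kidney depth limits the members: with totals as low as 28722 a count of 0 allows up to 104 CPM.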
